A study of Solanum lycopersicum with 12 samples.

Results

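The ripening step described here took red tomato fruit from color break, sampled on day 40 after flowers opened, to maturity on day 55. It was followed in 6 of the 12 RNA-seq libraries of the series, 3 at each stage, all from the tomato with the number 20. The other 6 libraries are fruits of the yellow tomato with the number 19 at the same 2 stages, again 3 each. They entered the same statistical fit and serve below as the comparison for the stage change. Both tomatoes are Solanum lycopersicum, no treatment or engineered allele is named in the labels, and the material is called fruits without a tissue. Nothing in the labels ties the replicates to different plants, so the p-values cover the spread among these samples, which could be technical in origin. Whether seeds were removed is not stated either.

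Color break is the stage at which a full-size green tomato first shows color. As background, ethylene and a set of transcription factors (RIN, NOR, CNR, the FUL proteins, TAGL1) then switch on lycopene synthesis, cell wall softening and aroma production, while chloroplasts turn into chromoplasts and photosynthesis genes are shut down. Seeds mature inside the same fruit over the same weeks, filling with storage proteins and oil before they dry. The comparison asks which of these programmes were still changing in red fruit after color had begun to show.

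Levels are FPKM, reads scaled by gene length and library total. Genes with at least 1 FPKM in at least 3 libraries were tested, 15974 of 24215. A gene was called, written below as rose or fell, when the edgeR quasi-likelihood test gave a Benjamini-Hochberg adjusted p under 0.05 and the log2 fold change was at least 1 in size. In red fruit 2471 genes were called, 15.5% of those tested. Of these 628 rose (3.93%) and 1843 fell (11.5%). At the adjusted p alone 64.3% of genes passed, at an unadjusted p under 0.05 67.6% passed, and for 66.3% the 3 libraries of one stage lay entirely above the 3 of the other, so a small p on its own is the usual case in these libraries. The falls also reached further. With a log2 change of at least 4 in size, 52 genes rose and 406 fell, and 62 of the 406 had no count in any mature red library.

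**Figure D1:**
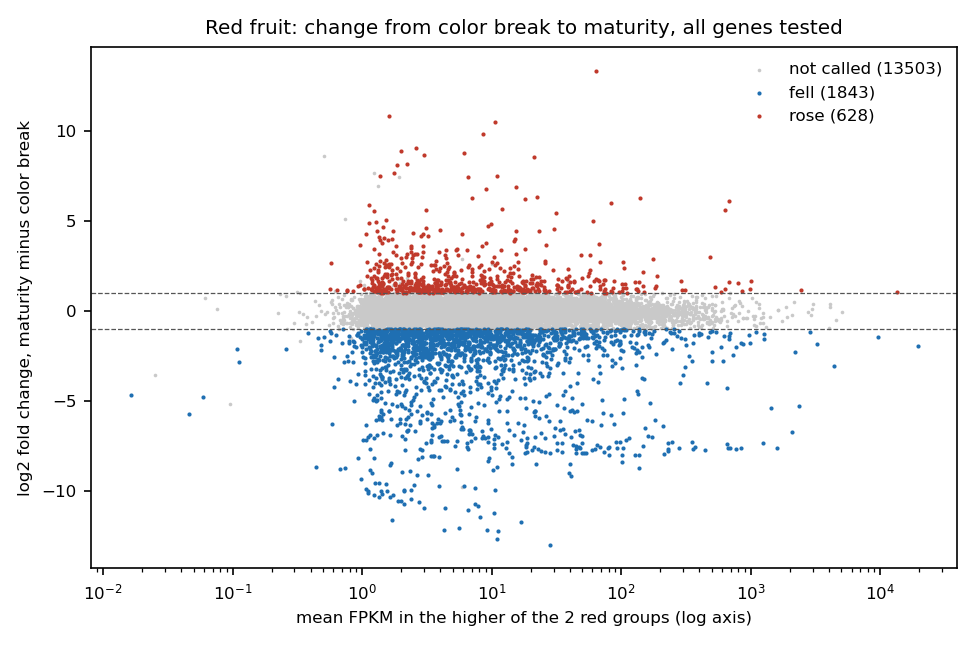
Each point is 1 of the 15974 genes tested, with its mean FPKM in the higher red group on a log axis and its log2 fold change from color break to maturity. The 1843 genes that fell include many between -7 and -8 even at high levels, while most of the 628 that rose stay below 5.

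Total counts of the 6 red libraries were 52027250 to 59678360. On the first principal component of the red libraries (88.0% of the variance), the color break libraries lay together at -85.7 to -84.6, mature replicates 2 and 3 at 99.7 and 99.5, and mature replicate 1 at 56.2. Replicate 1 was thus nearer to color break, and all calls were repeated without it. The repeat called 2585 genes (16.2% of those tested), of which 641 rose (4.01%) and 1944 fell (12.2%). It shared 2395 calls with the fit on all 3, 76 were lost, 190 were gained, and 0 turned direction. Fold changes come from counts scaled by TMM, for which the median gene changed by 0.00 (log2). FPKM divides by each library's own total, and on that scale the median gene stood 0.14 higher at maturity, so a small step in FPKM can have another sign in the test.

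Genes of seed storage and oil bodies had the lowest medians of the lists examined, though single genes outside them fell further. Of 11 genes tested with the Gene Ontology term for nutrient reservoir activity, the term of seed storage proteins, 10 fell and 0 rose, with a median log2 change of -7.26 against 0.00 over all genes tested. Their summed level was 1810 to 1931 FPKM in the color break libraries and 56.9, 17.5 and 17.6 FPKM in mature replicates 1, 2 and 3. Of 9 genes with the lipid droplet term, which covers the oleosins that coat oil bodies, 8 fell (median -6.64) and their sum went from 855 to 909 FPKM down to 22.2, 4.34 and 5.01. In bulk RNA such as this, fewer cells of a type and less RNA per cell cannot be told apart.

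The gene for the Em-like protein GEA6 (Solyc06g048840, chromosome 6, 31909357 to 31910402), one of the late embryogenesis proteins that accumulate before seeds dry, stood at 1521, 1592 and 1647 FPKM at color break. In the mature libraries it stood at 27.1, 0.08 and 0.07 FPKM. The groups did not overlap, as the rule for naming the gene required. Replicate 1 was far above replicates 2 and 3, and the log2 change was -7.60 ± 1.03 (SE, edgeR adjusted p = 2.0e-05).
The oleosin gene Solyc12g010920 read 349, 356 and 360 FPKM at color break and 6.76, 0.38 and 0.59 at maturity (-7.28 ± 0.48). A further oleosin, Solyc06g034040, went from 225, 246 and 267 FPKM to 5.44 in replicate 1 and 0 counts in replicates 2 and 3. Of 6 tested genes on the list of oleosins and late embryogenesis proteins taken from descriptions, 5 fell and 0 rose. The gene not called, Solyc01g095150, was at 134 FPKM at color break and 180 at maturity (0.27).

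Other genes of high level followed the same course. LE25 (Solyc10g078770), which encodes a tomato late embryogenesis protein, went from 1390, 1476 and 1433 FPKM to 63.9, 24.7 and 24.3. The nutrient reservoir gene Solyc08g080490, at 1186, 1278 and 1292 FPKM at color break, was at 26.2 in replicate 1 and at 0 in replicates 2 and 3. Tonoplast intrinsic protein 32 (Solyc03g019820), a vacuolar water channel, read 134, 137 and 139 FPKM and then 1.1, 0 and 0. The groups of all of these were fully separate, as they were for 66.3% of all genes tested. LE25 and Solyc08g080490 were picked after their values were seen.

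Lipid-transfer proteins, small secreted proteins that bind lipids, fell in 6 of 8 tested genes and rose in 0 (median -5.74). Neighbouring genes on chromosome 1 held most of the level. Solyc01g090350 (83930827 to 83931556) went from 812, 848 and 847 FPKM to 14.6 in replicate 1 and 0 in replicates 2 and 3, and Solyc01g090360 from 621, 658 and 681 to 12.4, 0.15 and 0.37. As near copies they may share reads. Solyc01g081600, a weaker member at 5.28 to 8.88 FPKM, had no count in any mature library, which is at least 219-fold lower, taking 3 counts over the group as the floor. DSI-1VOC (Solyc06g075990) went the same way from 25.2, 29.7 and 29.2 FPKM to 0 in all 3, at least 1059-fold lower.

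Mature replicate 1 still held some of these transcripts. Of the 1944 genes that fell without it, 281 stood below 1% of their color break level as the mean of replicates 2 and 3. These 281 were chosen for low values in replicates 2 and 3, so only replicate 1 is described. Its median was 1.66% of color break, and 218 of the 281 were detected in it. Of the 281, 32 had at least 100 FPKM at color break. Replicate 1 held between 0.74% and 3.02% of the color break level for every one of the 32, with a median of 1.58% and quartiles of 1.47% and 1.88%. For the 85 genes at 10 to 100 FPKM the median was 1.59% and the range 0 to 114%, with 6 at 0. For the 151 at 1 to 10 FPKM it was 2.04% and 0 to 120%, with 49 at 0, so the narrow range holds only for the most abundant. Among them are GEA6 at 1.56%, both lipid-transfer genes at 1.6% and 1.73%, the oleosins Solyc12g010920 and Solyc06g034040 at 1.74% and 2.02%, and the cysteine protease RD19D (Solyc11g008260) at 1.71%. Only 8 of the 32 belong to the storage, oil body, seed or lipid-transfer lists, and 23 carry no description. For genes left at 25 to 50% of color break in replicates 2 and 3, replicate 1 was close to them, at a median of 42.0% against 38.9% and 38.5%. These genes too were chosen by replicates 2 and 3. Whether seed RNA takes part in the other falls of replicates 2 and 3 was not tested.

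**Figure D2:**
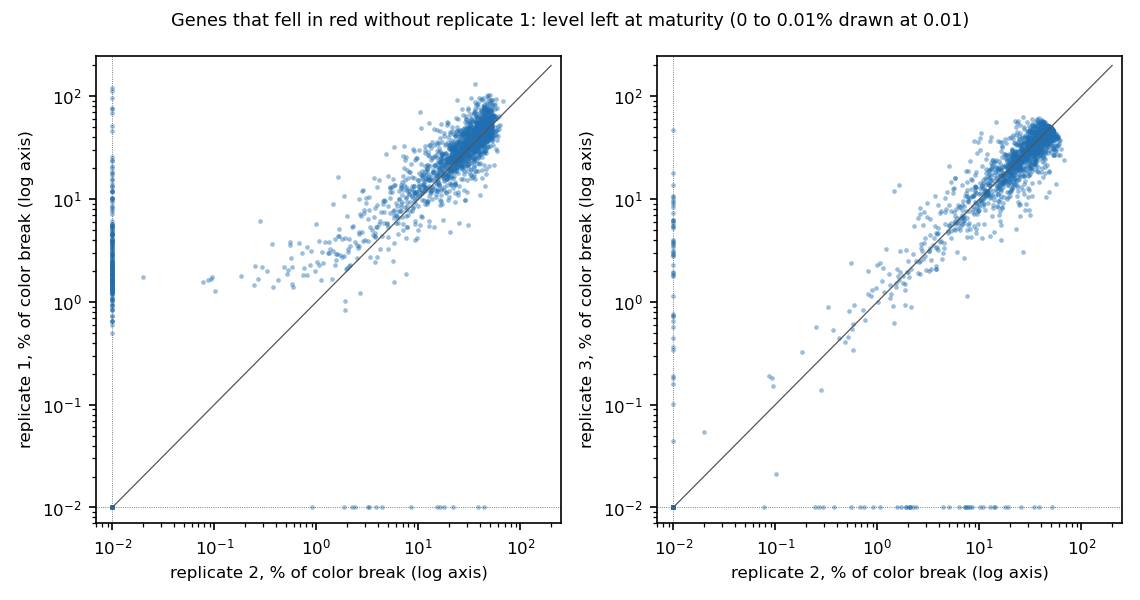
Points are the 1944 genes that fell in red without replicate 1, with the level left in each mature library as a percent of the color break mean on log axes, and values up to 0.01% drawn at 0.01. Of 226 genes at 0 counts in replicates 2 and 3, 165 were detected in replicate 1. Quartiles over the 226 were 0 and 3.1% there (left). Replicate 3 follows replicate 2 along the diagonal (right). All genes shown were chosen by replicates 2 and 3, so replicate 1 can lie apart through that choice alone.

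**Figure D3:**
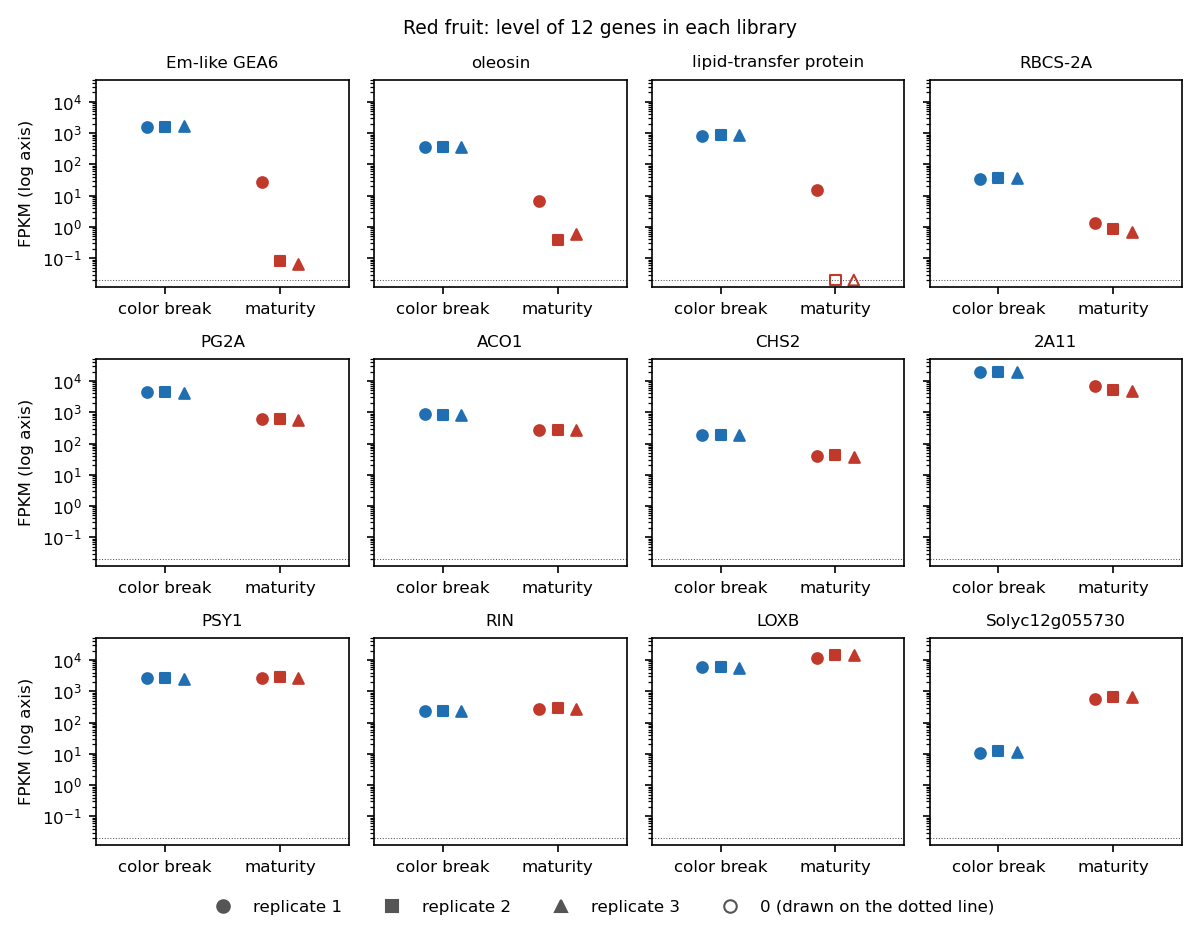
FPKM of 12 genes in each of the 6 red libraries, on a log axis, with blue for color break, red for maturity and a marker shape for each replicate. In the top row, GEA6, the oleosin and the lipid-transfer gene are far lower in mature replicates 2 and 3 than in replicate 1. PSY1 and RIN stay level across all 6 libraries.

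Of 41 tested genes with the tricarboxylic acid cycle term, 8 fell and 0 rose, and the median was -0.06, close to that of all genes. The 8 include malate synthase, the glyoxylate cycle enzyme that turns stored oil into sugar, where Solyc03g111140 went from 71.1, 67.1 and 70.8 FPKM to 2.04, 0.44 and 0.43 (-6.34 ± 0.31). They also include the succinate dehydrogenase iron-sulfur subunit gene Solyc04g055030, from 10.9, 10.6 and 11.4 FPKM to 0.09, 0 and 0. A citrate synthase, Solyc07g055840, stood at 41.2 to 42.9 FPKM and then at 1.48 to 1.78. The SWEET sugar exporters were split, as 6 of 11 tested sugar transporters fell and 1 rose. Solyc12g055870 fell from 3.05 to 3.66 FPKM at color break to 0.03, 0 and 0. Solyc05g024260 rose from 43.6, 46.2 and 43.0 FPKM to 178, 203 and 186 (1.93 ± 0.05, adjusted p = 3.6e-13), and it was the most abundant transcript of the list at both stages.

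Photosynthesis genes fell widely and far. Of 23 tested genes of the photosystems, the light-harvesting antenna and Rubisco, listed as nuclear, 17 fell, 2 rose and 4 were not called. Their median was -3.34. The 2 that rose were Ycf4 (Solyc04g039810) and psbZ, entries of low level that are taken up below as different in kind. The sum of the list was 1017, 1023 and 1052 FPKM at color break and 230, 170 and 162 at maturity. The photosystem I chlorophyll a/b-binding protein gene Solyc10g006230 read 45.6, 41.9 and 43.9 FPKM and then 0.68, 0.29 and 0.45 (-6.68 ± 0.17). The oxygen-evolving complex gene Solyc02g079950 went from 24.8, 21.3 and 23.5 FPKM to 0.61, 0.31 and 0.32 (-5.96 ± 0.20). RBCS-2A, a small subunit of Rubisco, went from 35.0, 36.4 and 37.5 FPKM to 1.30, 0.83 and 0.71. Replicate 1 was the highest of the mature libraries for each of these genes. For the 19 genes of the list that fell without replicate 1, the median share of the color break level left was 9.97%, 5.83% and 7.98% in replicates 1, 2 and 3. For the 5 seed genes the medians were 2.02%, 0.10% and 0.15%. These are medians over genes and not shares of the summed level. Both sets were called on replicates 2 and 3, so replicate 1 can stand higher through that choice alone. Chlorophyll a/b-binding genes are close copies of each other and may share reads.

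Chlorophyll synthesis moved less. Of 14 tested genes with the chlorophyll biosynthesis term, 4 fell and 10 were not called (median -0.65). Chlorophyll synthase, the last step (Solyc09g014760), went from 115, 115 and 118 FPKM to 37.6, 40.4 and 37.6 (-1.75 ± 0.05).

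A few entries of the photosystem terms went the other way, and they differ in kind. Of 44 tested genes with a photosystem I, photosystem II or light-harvesting term, 30 fell, 5 rose and 9 were not called. The 5 that rose span 189 to 1121 bases of genome (median 499), while the 30 that fell span 441 to 12874 (median 1715). The strongest is Solyc05g016120 on chromosome 5 (14612729 to 14613849), at 1.58, 1.57 and 2.04 FPKM at color break and 62.1, 58.6 and 61.2 at maturity (4.97 ± 0.14, adjusted p = 2.0e-12). The others lie low. Ycf4 (Solyc04g039810), whose kin in the plastid genome helps build photosystem I, went from at most 0.23 to 1.29 to 1.65 FPKM, and psbZ, a small photosystem II subunit, from 0.51, 0.78 and 1.33 to 1.40, 3.30 and 2.55. The psbZ call was lost without mature replicate 2 (1.01, adjusted p = 0.076) and without either of color break replicates 1 and 2, and Ycf4 was not called by DESeq2 (3.91 ± 2.96, adjusted p = 0.24).

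Entries of that kind are frequent among the largest rises. Of the 52 genes that rose by at least 4 (log2), 26 carry any Gene Ontology term, and for 11 of these 26 (42.3%) a term names the plastid, the thylakoid or photosynthesis. The share was 6.12% of 11964 such genes over all tested, 8.75% for all that rose and 9.28% for those that fell by at least 4. The 52 are short, with a median span of 861 bases against 4639 over all tested, and 6 of them have a description. Solyc01g048590 and Solyc12g039030, with photosystem II electron transport terms, went from 0.46 to 0.88 and from 0.51 to 1.62 FPKM to 29.2 to 34.1 and 26.1 to 35.5. The chloroplast ribosomal protein gene rpl33 (Solyc09g064410) rose from 0.92, 1.07 and 0.48 FPKM to 6.54, 10.5 and 6.36 (3.01 ± 0.51). A list drawn up as plastid-type genes was divided, and its members differ in kind. Of 9 tested, the 2 that rose were rpl33 and psbZ. The 4 that fell were PSAO (Solyc06g074200), the photosystem I subunit gene psaD, NdhU and NdhN.

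The largest rises among genes with a description were on chromosome 11 and were not of protein-coding genes. ENSRNA050030024, annotated as large subunit ribosomal RNA (32649237 to 32650587), read 0.10, 0.16 and 0.09 FPKM at color break and 14.3, 16 and 15.8 at maturity (6.85 ± 0.19, adjusted p = 1.7e-12). ENSRNA050030006, annotated as a group II catalytic intron (49601923 to 49602041), read 2.45, 1.14 and 1.03 FPKM and then 134, 148 and 137 (6.25 ± 0.25). The undescribed entry Solyc11g039860, with a span from 41861593 to 41861709 on the same chromosome, went from 9.50, 7.95 and 9.20 FPKM to 709, 606 and 706 (6.08 ± 0.19). Chromosome 11 held 10 of the 52 rises of at least 4, the most of any chromosome, and 5.89% of its 1104 tested genes rose against 3.93% over all. On chromosome 2 the share was similar, 5.80% of 1723 genes, with 3 rises of at least 4. The libraries were made from RNA caught on oligo(dT), and how reads from ribosomal, intron and organelle RNA were placed is not stated in the labels. The share of counts on ribosomal RNA entries as a whole was lower at maturity (0.04 to 0.06%) than at color break (0.08 to 0.13%).

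Rises of abundant protein-coding transcripts were fewer. LOXB, a lipoxygenase of ripening fruit, rose from an already high 5826, 5895 and 5710 FPKM to 11640, 13994 and 14423. Its log2 change was 1.04 ± 0.05 (adjusted p = 4.1e-10), and it took 1.79 to 1.84% of all counts at color break and 3.61 to 4.31% at maturity. Replicate 1 was again nearest to color break, and without replicate 3 the change was 0.98, under the size of a call. Solyc12g055730 on chromosome 12 (62671949 to 62676626), with a triglyceride lipase term, went from 10.7, 12.1 and 11.6 FPKM to 590, 636 and 657 (5.62 ± 0.06, adjusted p = 6.1e-16). Solyc02g038740, with the term of hydroxymethylglutaryl-CoA reductase, the enzyme that commits carbon to cytosolic isoprenoids and sterols, went from 56.6, 55.1 and 53.4 FPKM to 446, 511 and 505 (2.99 ± 0.05). HMG-CoA synthase (Solyc12g056450), the step before it, went from 3.38, 3.35 and 3.71 FPKM to 1.5, 1.53 and 1.82 (-1.26 ± 0.13). Solyc12g055730, Solyc02g038740 and Solyc12g056450 were picked after their values were seen.

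Among described protein-coding genes with at least 5 FPKM at maturity, the next largest rises after rpl33 were these. WALLS ARE THIN 1 (Solyc04g080940), whose Arabidopsis counterpart exports auxin from the vacuole, went from 1.11, 1.51 and 0.93 FPKM to 9.26, 10.3 and 11.4 (2.96 ± 0.16). A sulfotransferase (Solyc05g011890) rose by 2.56 ± 0.21, the fatty acid desaturase FAD3 (Solyc06g007130), which makes linolenic acid, by 2.42 ± 0.13, and Cyclin-J18 (Solyc04g078500) by 2.30 ± 0.19. Proline dehydrogenase (Solyc02g089620), the first step of proline breakdown, read 13, 12.6 and 10.6 FPKM and then 54.5, 55.9 and 59.9 (2.08 ± 0.06). The basic endochitinase CHI9 read 3.65, 5.67 and 4.67 FPKM and then 20.5, 20.4 and 20.7 (1.98 ± 0.15). In all of these genes every mature library was above every color break library, which the rule for naming them required.

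Genes of lycopene synthesis showed no change past the thresholds. Of 12 tested, from the plastid isoprenoid supply to the desaturases and isomerases, 0 were called by edgeR, although 8 had an unadjusted p under 0.05, and DESeq2 and limma also called 0. PSY1, phytoene synthase, the entry to the pathway, was at 2698, 2661 and 2555 FPKM at color break and 2743, 2826 and 2767 at maturity (-0.08 ± 0.02, a sign that turns with FPKM scaling). The prolycopene isomerase CRTISO moved most upward, from 55.9, 54.0 and 51.3 FPKM to 79.0, 84.1 and 76.3 (0.41 ± 0.04), and IDI1 most downward (-0.59). The chromoplast lycopene cyclase CYCB was at 25.3, 24.7 and 28.1 FPKM and then at 28.6, 31.9 and 27.9, overlapping between stages. Of 8 later carotenoid genes 2 fell. VDE, the violaxanthin de-epoxidase of the thylakoid xanthophyll cycle, went from 17.2, 16.3 and 16.3 FPKM to 5.32, 4.33 and 4.40 (-1.98 ± 0.08). NCED1, the committed step of abscisic acid synthesis, went from 38.7, 37.5 and 36.2 FPKM to 13.6, 16.3 and 14.7 (-1.50 ± 0.05).

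Ripening regulators behaved likewise. Of 12 tested 0 were called by edgeR (9 with an unadjusted p under 0.05) or by DESeq2. With no filter or with edgeR's filterByExpr, which test more genes, 1 listed regulator was called. RIN, a MADS-box protein that ripening depends on, read 240, 236 and 229 FPKM and then 264, 293 and 266 (0.06 ± 0.04, adjusted p = 0.15), and NOR, a NAC factor, 339, 334 and 338 and then 316, 353 and 324 (-0.19 ± 0.04). TAGL1 was at 105 to 115 FPKM and then at 102 to 131, with the stages overlapping. The gene listed as CNR was at 247, 240 and 232 FPKM and then at 360, 354 and 358 (0.42 ± 0.03), and FUL1 changed by 0.36 and FUL2 by 0.19. The most negative of the list was APRR2, linked to plastid pigmentation, at -0.84. SEP2 (Solyc04g053130), not on the list, fell from a mean of 966 FPKM to 431 (-1.32 ± 0.07).

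Ethylene genes divided between synthesis steps. The system of synthesis that starts at ripening uses the ACC synthases ACS2 and ACS4, and neither was called. ACS2 was at 312, 304 and 295 FPKM and then at 399, 461 and 439 (0.35 ± 0.04), ACS4 at 126, 128 and 124 and then at 170, 188 and 184 (0.36 ± 0.04). ACC oxidases, which make ethylene from the product of ACC synthase, accounted for all 3 falls among 8 tested genes, against 0 rises. ACO1 went from 855, 818 and 836 FPKM to 271, 278 and 263 (-1.79 ± 0.03, adjusted p = 2.1e-14). ACO5 went from 27.1, 25.7 and 23.7 FPKM to 4.95, 5.50 and 4.97 (-2.47 ± 0.08), and ACO6 from 107, 104 and 101 to 3.08, 2.09 and 1.77 (-5.65 ± 0.13). ACO4 was not called (-0.18). Of 15 tested receptor, signalling and response genes 2 fell. E4, an ethylene-responsive gene described as a peptide methionine sulfoxide reductase, went from 3346, 3190 and 3224 FPKM to 1191, 948 and 917 (-1.83 ± 0.09), and EIL2, of the transcription factors that carry the ethylene signal, from 50.5, 48.9 and 52.0 to 18, 19.5 and 22.0 (-1.51 ± 0.06). The receptor NR, at 300 to 313 FPKM and then 291 to 316, overlapped between stages in FPKM. In the scaled counts its stages were apart, and it was lower at maturity (-0.16 ± 0.03, edgeR adjusted p = 0.00086), under the size of a call. E8, a further ethylene-responsive gene, was at 4471 to 4597 FPKM and then at 3336 to 3671 (-0.54 ± 0.03).

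**Figure D4:**
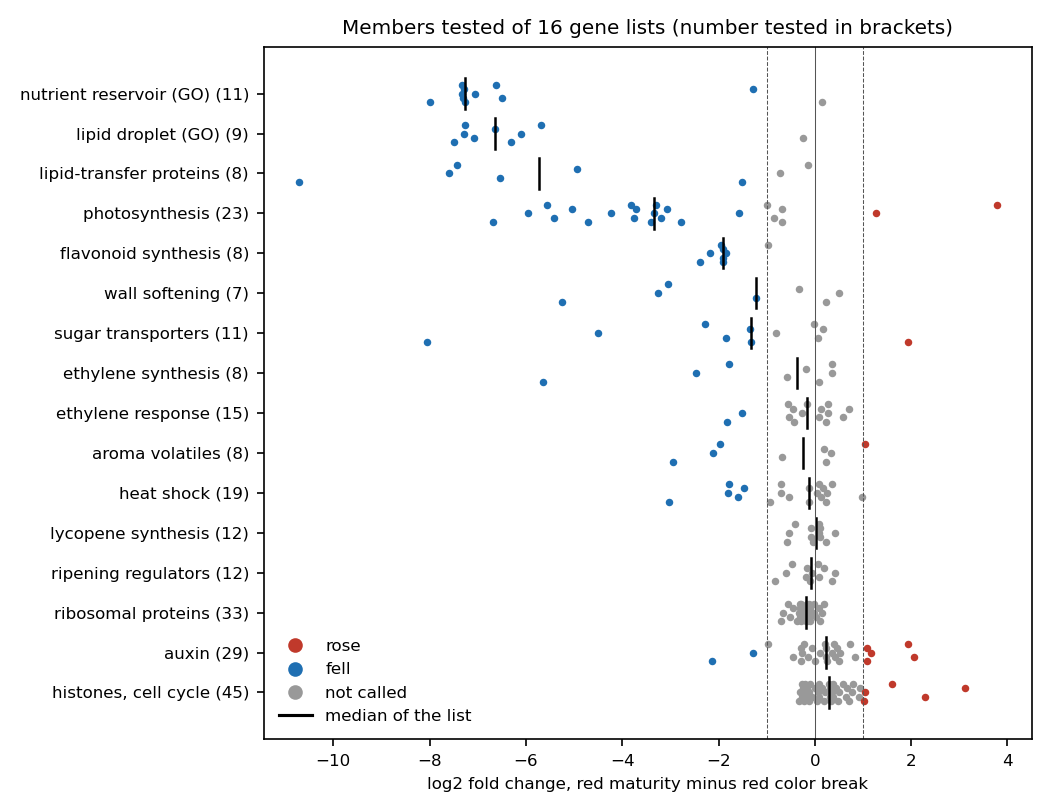
Each point is a tested member of 1 of 16 gene lists, placed by its log2 fold change from color break to maturity in red fruit, with red for rose, blue for fell, grey for not called and a black bar for the median. The medians are -7.26 for storage, -6.64 for oil body, -5.74 for lipid-transfer and -3.34 for photosynthesis genes, while all 12 lycopene genes and all 12 ripening regulators lie between the dashed lines at -1 and 1.

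Cell wall genes did not move as 1 set. Of 7 tested softening genes 4 fell and 0 rose. PG2A, the polygalacturonase that cuts pectin in ripe fruit (chromosome 10, 61686894 to 61693945), went from 4573, 4432 and 4248 FPKM to 627, 588 and 558, which is 8.34-fold lower (-3.06 ± 0.04, adjusted p = 8.5e-15). The mannanase gene MAN4 went from 8.29 to 9.50 FPKM to 0.16 to 0.41, the endoglucanase CEL1 from 3.27 to 3.77 to 0.35 to 0.46, and the beta-galactosidase TBG4 from 52.1, 51.5 and 52.2 to 23.6, 25.9 and 24.5 (-1.23 ± 0.04). The pectate lyase listed as PL, at 1432, 1421 and 1410 FPKM and then 1683, 1978 and 1922 (0.23 ± 0.04), the expansin EXP1 (-0.32) and the endoglucanase CEL2 (0.49) were not called. PL was therefore the more abundant pectin enzyme of mature red fruit, and PG2A that of color break. Among 17 tested expansins and xyloglucan enzymes 5 fell and 1 rose. XTH1 went from 7.95, 8.01 and 8.19 FPKM to 0.49, 0.93 and 0.87 (-3.54 ± 0.19), whereas Solyc05g005680 rose by 1.37 ± 0.16. Of 16 pectin enzymes 3 fell and 1 rose. A pectate lyase, Solyc09g091430, went from 49.4, 49.2 and 52.0 FPKM to 1.82, 1.45 and 1.37 (-5.18 ± 0.10).

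Flavonoid synthesis fell as a block: 7 of 8 tested genes fell and 0 rose, with a median of -1.92. Naringenin chalcone and flavonols accumulate in tomato peel. The chalcone synthases, the first committed step, were CHS2 at 185, 185 and 186 FPKM and then 39.8, 41.5 and 37.7 (-2.38 ± 0.10) and CHS1 at 71.2, 75.6 and 73.5 and then 19.6, 15.5 and 19.3 (-2.18 ± 0.09). They are near copies and may share reads. The flavonol synthase FLS went from 324, 320 and 312 FPKM to 89.9, 102 and 90.6 (-1.92 ± 0.05), and the phenylalanine ammonia-lyase gene PAL5 from 68.2, 66.5 and 68.7 to 19.4, 19.2 and 19.7 (-1.96 ± 0.04). Their regulator MYB12 went from 10.5, 9.93 and 10.2 FPKM to 3.53, 2.70 and 2.88 (-1.91 ± 0.16). F3'H, at -0.98, was just outside the size of a call. Replicates 1, 2 and 3 were alike here, with a median of 25.8%, 25% and 25.1% of the color break level over the 7 genes.

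Of 8 tested aroma genes LOXB rose and 3 fell, among them the lipoxygenase genes LOXD, from 2.35 to 2.41 FPKM to 0.32 to 0.37 (-2.95 ± 0.13), and LOX1.1, from 18.6, 17.9 and 17.5 to 4.90, 4.66 and 4.27 (-2.12 ± 0.06). LOXC, whose product feeds fatty acid volatiles, was at 191 to 197 FPKM and then at 266 to 276 (0.33 ± 0.03), and the alcohol dehydrogenase ADH2 at 3211 to 3234 and then at 4013 to 4227 (0.19 ± 0.03). The sum of the list was 9846 to 10060 FPKM at color break and 17020, 19290 and 19600 at maturity, most of it LOXB. Of 14 sugar and starch genes 2 fell: the sucrose synthase SUS1, from 30.4, 31.2 and 29.6 FPKM to 10.4, 11.2 and 10.9 (-1.65 ± 0.05), and the invertase inhibitor INVINH1, from 64.8, 60.7 and 58.8 to 22.1, 21.2 and 17.1 (-1.77 ± 0.09). The vacuolar invertase TIV1, which splits sucrose in ripe fruit, was at 1163, 1190 and 1224 FPKM and then at 1137, 1294 and 1303, overlapping. Of 9 genes of organic acids and GABA, the glutamate decarboxylase GAD2 rose from 8.03, 8.48 and 8.40 FPKM to 19.6, 19.4 and 20.0 (1.09 ± 0.07) and 0 fell. GAD3 moved by 0.88 ± 0.13.

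Among other families, 5 of 19 heat shock genes fell and 0 rose, though 1 rose without replicate 1. The falls include HSP21, the plastid small heat shock protein, from 979, 983 and 1016 FPKM to 324, 319 and 319 (-1.79 ± 0.04). They also include a small heat shock protein (Solyc12g042830), from 126, 133 and 131 to 19.6, 16.5 and 17.3 (-3.02 ± 0.08). Of 39 tested genes with the response to heat term, 9 fell and 2 rose. The larger rise was Solyc10g086680, from 0.23, 0.10 and 0.28 FPKM to 10.6, 14.7 and 10.8 (5.64 ± 0.36). Of 45 histone and cell cycle genes 5 rose (11.1%, against 3.93% over all genes) and 0 fell, with a median of 0.30. Without replicate 1, 3 rose and the median was 0.20. Of 55 genes with the nucleosome term 4 rose and 1 fell, and 2 rose without replicate 1. Histone H1 (Solyc09g066100) went from 37.4, 39.4 and 37 FPKM to 118, 137 and 129 (1.6 ± 0.04), and a histone H3 (Solyc04g074580) from 254, 254 and 264 to 682, 545 and 547, with 0.91 without replicate 1. Oligo(dT) capture and shared reads limit histone values. Of 29 auxin genes 5 rose and 2 fell, with the efflux carrier Solyc05g008060 going from 10.6 to 11.1 FPKM to 2.64 to 2.81 (-2.15 ± 0.08). None of 33 cytosolic ribosomal protein genes was called by edgeR (27 with an unadjusted p under 0.05) or by DESeq2, and none of 23 autophagy genes by edgeR (17 with an unadjusted p under 0.05).
Among 9 chitinase and glucanase genes 3 fell and 1 rose, among 16 peroxidases 2 fell and 1 rose, among 8 cytochrome P450 genes 1 fell and 2 rose, and among 28 glycosyltransferases 7 fell and 0 rose. Of 12 cuticle genes 4 fell and 2 rose, of 5 aquaporins 2 fell and 1 rose, of 17 senescence and proteolysis genes 2 fell, and of 3 ERF genes 1 rose and 1 fell. Over all genes tested 15.5% were called, and the peroxidases (18.8%) and the senescence genes (11.8%) were near that share. Near it too were the ethylene receptor and response (13.3%), sugar and starch (14.3%) and acid and GABA (11.1%) lists. Of 3 glycoalkaloid genes GAME11 fell from 20.9 to 22.8 FPKM to 0.21 to 0.82 (-5.54 ± 0.23). None of 7 vascular genes passed the level filter.

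Very abundant transcripts also fell. The fruit-specific gene 2A11 (Solyc07g049140) had 19168, 19417 and 19749 FPKM at color break and 6920, 4983 and 4798 at maturity (-1.96 ± 0.11), from 1.25 to 1.30% of all counts to 0.30 to 0.45%. Adenosylhomocysteinase (Solyc09g092380), which recycles the product of methylation reactions, went from 9435, 9419 and 9804 FPKM to 4117, 3585 and 3814 (-1.47 ± 0.05). Both were picked after their values were seen.

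In yellow fruit of the same ages 1015 genes were called at the same thresholds (6.35%), 235 rising (1.47%) and 780 falling (4.88%). Testing the red change against the yellow one within the fit called 1954 genes (12.2%), 480 higher in red (3%) and 1474 lower (9.23%). Of the 1843 genes that fell in red, 650 also fell in yellow, and for 1233 the red change was called lower than the yellow one. Of the 628 that rose, 103 also rose in yellow and for 310 the difference was called. The deep falls were shared in direction: of 406 genes that fell by at least 4 in red, 342 also fell in yellow, and 373 were called lower in red. Genes in these counts were chosen by their red change, which is also part of the difference to yellow. A high count of called differences among them is thus partly built in. GEA6 was at 416 ± 31.1 FPKM (SD, n = 3) in yellow fruit at color break and 114 ± 5.57 at maturity. Over the 10 nutrient reservoir genes that fell, yellow mature fruit kept a median of 6.05 to 9.08% of its color break level per library, where red replicates 2 and 3 kept 0 at the median. Over the 19 photosynthesis genes that fell in red without replicate 1, the yellow median was 44.7 to 51.5%, while the sum of the whole list in yellow went from 673 to 732 FPKM at color break to 462 to 474 at maturity. Both sets were chosen for falling in red replicates 2 and 3, which by itself tends to place red below yellow.

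Several ripening genes that fell in red did not fall in yellow. PG2A was 4462 ± 120 FPKM in yellow at color break and 5607 ± 57.0 at maturity, so the red change was lower by -3.37 ± 0.06 (adjusted p = 1.6e-13). ACO1 was 704 ± 10.7 and then 763 ± 8.69 (difference -1.88 ± 0.04), and 2A11 19396 ± 942 and then 20978 ± 630 (difference -2.05 ± 0.15). CHS2 and CHS1 were at 1.49 ± 0.29 and 0.52 ± 0.07 FPKM in yellow at color break and at 2.37 ± 0.61 and 1.09 ± 0.16 at maturity, low at both stages, with differences of -3 and -3.19. LOXB was 9118 ± 272 and then 7822 ± 138 in yellow (difference 1.28 ± 0.07). Solyc12g055730 rose in both, with 18.8 ± 1.13 FPKM and then 200 ± 0.78 in yellow, and the difference of 2.23 ± 0.07 was called. For the large rises on chromosome 11 the yellow means were low at both stages, where ENSRNA050030006 was at 0.95 ± 0.30 and then 1.96 ± 0.61 FPKM and Solyc11g039860 at 6.12 ± 3.36 and then 5.64 ± 0.47 (differences 5.31 and 6.2). PSY1, RIN, NOR, CRTISO, NR and EXP1 differed by at most 0.27 in size, under the size of a call.

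Genes with the chitin-binding term were called mostly as falling in red and as rising in yellow. Of 11 tested, 6 fell and 2 rose in red, and 7 rose and 1 fell in yellow. The difference was called lower in red for 8 and higher for 1, while CHI9 rose in both (1.98 and 2.16). Solyc10g017970 went from 2171, 2144 and 2229 FPKM to 675, 425 and 385 in red, while its mean in yellow was 117 and then 720 (difference -4.90). Its neighbour Solyc10g017980 went from 711 to 739 FPKM to 122 to 201 in red and from a mean of 15.8 to 178 in yellow. These neighbours were thus less far apart between the tomatoes at maturity than at color break. At maturity the yellow mean of Solyc10g017970 was still above every red library, while that of Solyc10g017980 lay within the red range. Other members stayed apart at maturity, in both directions. Solyc03g116225 was at 0 to 0.78 FPKM in red with a yellow mean of 17.1, and Solyc07g009500 at 9.30 to 15.4 with a yellow mean of 0.22. Red against yellow at maturity was not tested. The term was looked up after values were seen.

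**Figure D5:**
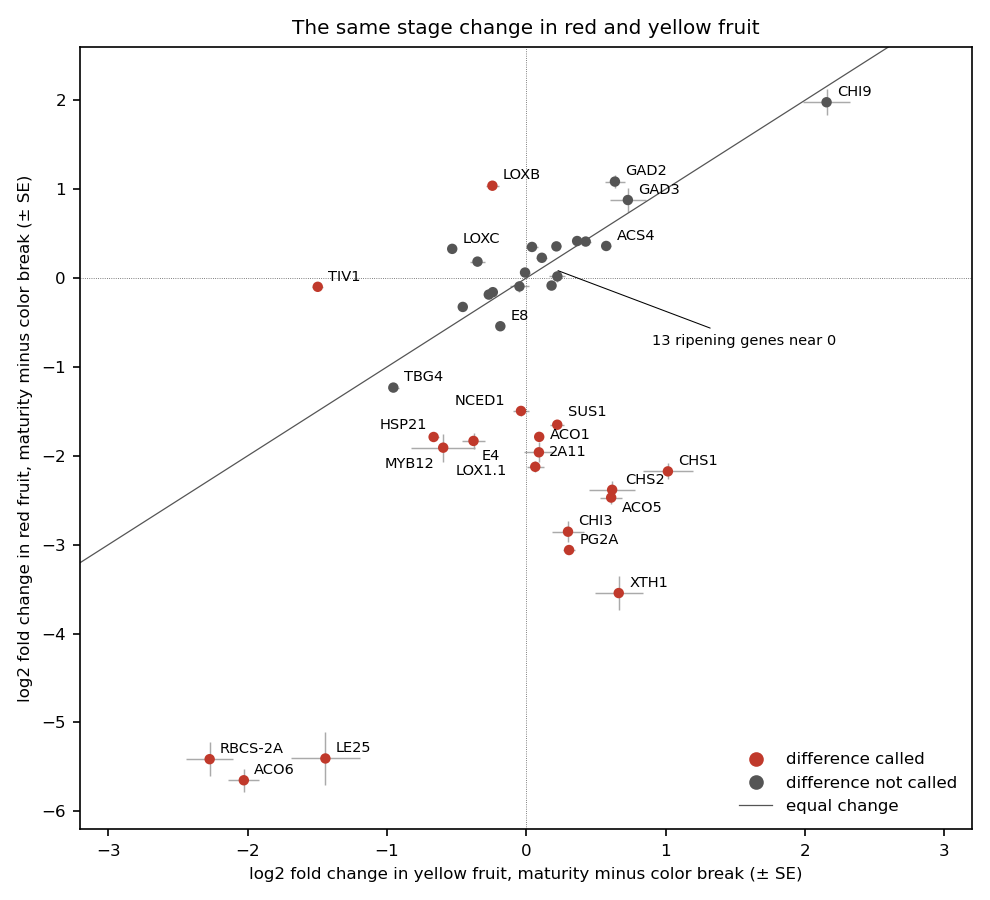
The log2 fold change from color break to maturity in red fruit against that in yellow fruit for ripening genes and other named genes, with standard errors as bars, a line of equal change, and red points where the difference was called. PG2A, XTH1, CHI3, ACO5, CHS1 and CHS2 lie far below the line, LOXB and TIV1 above it, and 13 ripening genes near 0.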

How the data were processed

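RNA from fruits was extracted with Trizol, caught on oligo(dT) and made into strand-marked paired-end libraries, per the labels' protocols. Per the submitters' processing notes, the tools were edgeR, DESeq2, StringTie 2.1.6, HISAT2 2.2.1 and cutadapt 1.9. For the genome build, the annotation and the strand setting of counting, nothing is given in the sources used here. A single table was deposited, holding per gene the FPKM and the read count of each library. The deposited count columns hold whole numbers and were tested as counts. The deposited FPKM values give the levels.

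All 12 libraries entered 1 edgeR 4.0.16 quasi-likelihood fit (R 4.3.3, TMM scaling, a mean per group), after a filter of at least 1 FPKM in at least 3 libraries. Genes were called at a log2 change of 1 or more in size with adjusted p (Benjamini-Hochberg) below 0.05. Adjusted p-values are from this fit unless another tool is named. SE is that of the log2 change. DESeq2 1.42.0, limma 3.58.1 on log2(FPKM + 1), other scalings and filters, a replicate block and leaving out each library were alternatives. The fit was tested on simulated data. Total counts per library were 50963462 to 60854667.

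Members and gene lists were chosen with earlier results of these data known, and lists by Gene Ontology term after values were seen. Lists by words of the description cover only the 4835 described genes, and 119 of 138 genes listed by identifier were in the table. Named were the 10 largest rises and falls among called, described genes with at least 5 FPKM in the higher group and no overlap, up to 4 called members per list and direction, the 5 largest each way without red maturity replicate 1, and 25 ripening genes, called or not. Of these 25, 24 were tested. Other genes were picked by their values or as list members, and the text does not mark each of them. Sequences are not printed, as none were used here.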

Additional observations from a re-analysis of the deposited data

Results flagged for a closer look

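6 of the named ripening genes changed differently in red and yellow fruit by the test of the difference itself. The stage change in red minus that in yellow (log2, edgeR) was -1.312 for MYB12, -1.454 for E4, -1.88 for ACO1, -3.192 for CHS1 and -3.368 for PG2A, and it was 1.398 for TIV1. For TIV1 the red level overlapped between stages while the yellow estimate was -1.5. For MYB12 and E4 the yellow estimates, -0.60 and -0.38, were not called, and for ACO1, CHS1 and PG2A the yellow estimate was above 0. Yellow levels were low for MYB12, at a mean of 0.46 FPKM at color break and 0.30 at maturity. They were also low for CHS1, at 0.52 and then 1.09, so both differences rest on yellow values near the floor. In red fruit the 3 libraries of each stage were apart for MYB12, E4, ACO1, CHS1 and PG2A.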

How the results depend on the processing

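The red comparison called 2471 genes. It called 3822 with no filter (24215 genes tested) and 3733 with edgeR's filterByExpr (19596 tested), which test more genes. Leaving out each red library gave 2416 to 2585, and the difference to yellow, 1954, was 2085 without red maturity replicate 1. DESeq2 called 2408, size factors 2476, the 6 red libraries alone 2458 and protein-coding entries alone 2426 (this last chosen after seeing the data). limma on FPKM called 1654 with a pseudocount of 1, 2406 with 0.1 and 1671 after rescaling to a fixed total. Those 3 raised the median of all genes by 0.14, 0.16 and 0.21, and the share of calls that rose from 25.4% to 29.2%, 33.7% and 34.6%. Same-numbered replicates of the 2 stages deviated with correlations of 0.03, 0.04 and 0.05, so the numbers do not pair them. A fit with the replicate block called 2473.

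Over 127 named genes and all alternatives, 1970 of 2022 values kept direction and side of the threshold, 36 fell short of it and 16 turned sign, all in genes near 0. In the limma fits with pseudocounts of 1 and 0.1 and after rescaling, PSY1 turned to 0.0752, 0.0753 and 0.159, TIV1 to 0.060, 0.0600 and 0.143, TAGL1 to 0.0592, 0.0596 and 0.142 and NR to 0.000546, 0.000545 and 0.0838. NOR turned to 0.0563 after rescaling, and CYCB to -0.0302, -0.00636 and -0.0197 without red maturity replicate 2 and color break replicates 1 and 2 (leaving out each red library gave -0.0302 to 0.0832). The cause was not tested. Of the lists, the seed list kept 3 of 5 calls with DESeq2, which gave 67 adjusted p-values as missing. Of the 127 named genes, 117 kept direction and side of the threshold with DESeq2 and 2 fell short of it. The remaining named genes had no DESeq2 value and are not among the 2022.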

Other observations

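Some entries switched between absent and present within replicates of a single group. Solyc04g014425 had 0 counts in all red color break libraries and in mature replicate 1, but 97.9 and 95.4 FPKM in mature replicates 2 and 3. In yellow fruit it was at 75.1, 75.1 and 0 FPKM at color break and at 72.9, 76.0 and 0 at maturity. Solyc01g107850 read 82.0, 83.5 and 85.6 FPKM at red color break and then 0, 41.5 and 41.5. In all, 14 genes had 0 counts in mature replicate 1 and at least 1 FPKM in both others, of which 4 were at 0 in all red color break libraries. Another 43 had at least 1 FPKM in replicate 1 and 0 counts in the other two, and 33 of these 43 had at least 1 FPKM in all 6 yellow libraries. For comparison, 11 genes had at least 1 FPKM in replicate 2 alone and 11 in replicate 3 alone.

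Between the stages, 49 genes with at least 1 FPKM in every red color break library had 0 counts in every mature one, and 1 of the 49 was also at 0 in all yellow mature libraries. The reverse held for 7 genes. Of these 7, 3 had 0 counts in all 6 yellow libraries, and 4 lie on chromosome 11.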
